A study of Homo sapiens with 8 samples.

Results

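The miRNAs described here are 9 mature miRNAs whose hairpins lie in an intron of CLCN5 on the X chromosome. They are hsa-miR-532-5p, hsa-miR-532-3p, hsa-miR-500a-3p, hsa-miR-501-3p, hsa-miR-502-3p, hsa-miR-660-5p, hsa-miR-362-5p, hsa-miR-362-3p and hsa-miR-188-5p, written without the species prefix from here on. They were taken by name from a table of 2588 mature miRNA names, and each of the 9 names had 1 entry. Small RNA-seq had been performed on total RNA of 4 established human cancer cell lines, with 2 biological replicate libraries per line. ES-2 derives from ovarian cancer, MV-3 from melanoma, Huh-7 from hepatocellular carcinoma and A-549 from lung adenocarcinoma. All cells were parental, without genetic modification or treatment, and were harvested 48 h after seeding in serum-supplemented DMEM. Each tumor type was represented by 1 line, so tumor type and line cannot be told apart. The question addressed was whether the cluster moves together across the 4 lines.

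All 9 members were most abundant in Huh-7, and the differences among the other 3 lines were small beside this. Summed over the members, the cluster reached 2871 ± 125 normalised CPM in Huh-7 (SD, n = 2), 601 ± 61.4 in A-549, 393 ± 31.9 in MV-3 and 354 ± 9.86 in ES-2. Normalised CPM are reads per 1000000 after the authors' TMM scaling. The Huh-7 sum was 8.11-fold the ES-2 sum, 7.30-fold the MV-3 sum and 4.78-fold the A-549 sum.

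MicroRNAs are cut from hairpin precursors, first by Drosha and then by Dicer, and each hairpin can give a mature strand from its 5p and its 3p arm. The strand that is loaded into an Argonaute protein recognises target mRNAs mainly through its seed. Hairpins that lie close together in an intron can be released from a common primary transcript, often that of the host gene, after which each is processed and degraded on its own. CLCN5 encodes a chloride/proton exchanger of endosomes that is best known from the kidney proximal tubule, where its loss causes Dent disease.

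On GRCh38 the 8 hairpins of the cluster occupy chromosome X from 50003148 to 50014683, a span of 11536 bases on the plus strand, and 7 of them give a member. The first hairpin, mir-532, lies at 50003148 to 50003238 and is followed by mir-188 at 50003503 to 50003588. After a gap of 4842 bases come mir-500a at 50008431 to 50008514, mir-362 at 50008964 to 50009028, mir-501 at 50009722 to 50009805 and mir-500b at 50010672 to 50010750. The last are mir-660 at 50013241 to 50013337 and mir-502 at 50014598 to 50014683. GENCODE release 44 lists 9 CLCN5 transcripts. Of these, 3 span all 8 hairpins, which lie in their introns, and the other 6 start downstream of the last hairpin. No hairpin overlaps a CLCN5 exon. Levels of CLCN5 mRNA were not analysed here.

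RefSeq mature sequences (GRCh38.p14) were matched for 8 of the 9 members, and they are shown because several 3p arms are so alike that reads could be assigned to either. Each is written 5′ to 3′ with the seed, bases 2 to 8, in capitals.
miR-532-5p: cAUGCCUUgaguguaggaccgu
miR-532-3p: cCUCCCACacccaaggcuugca
miR-188-5p: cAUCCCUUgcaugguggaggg
miR-362-5p: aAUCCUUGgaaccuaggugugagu
miR-362-3p: aACACACCuauucaaggauuca
miR-500a-3p: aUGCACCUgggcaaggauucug
miR-501-3p: aAUGCACCcgggcaaggauucu
miR-502-3p: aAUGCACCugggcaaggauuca
The 3p arms of mir-501 and mir-502 share the seed AUGCACC, which no other mature miRNA in the reference table carries. The seed of miR-500a-3p is UGCACCU. A run of 20 bases is identical between miR-500a-3p and miR-502-3p, and one of 13 bases between miR-500a-3p and miR-501-3p. Shifted by a base, miR-501-3p and miR-500a-3p also match in the stretch AUGCACC that precedes this run. How reads that align to several places were counted was not stated, so the split of reads among miR-500a-3p, miR-501-3p and miR-502-3p is uncertain. The longest run that miR-362-3p shares with these arms has 10 bases. Its seed is also that of miR-329-3p, and the seed of miR-362-5p is also that of miR-500b-5p, from a further hairpin of the cluster.

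Total miRNA reads per library ranged from 1173902 to 2670030, and the 9 members together received 500 to 906 reads per library in ES-2, MV-3 and A-549 but 10509 and 8148 in Huh-7. Per library, 3 reads corresponded to between 0.845 and 2.45 normalised CPM. Cell identity was checked with marker miRNAs. The 2 hepatocyte markers miR-122-5p and miR-885-5p summed to between 84424 and 89378 normalised CPM in Huh-7 and to at most 40.7 elsewhere, and miR-885-5p had 0 reads in ES-2 and A-549. The 5 epithelial markers of the miR-200 family summed to between 2273 and 2339 in Huh-7, 1605 and 1726 in A-549 and 29.6 and 60.4 in ES-2 and MV-3. Most of the sum was miR-200b-3p, with 1846.5 to 1858.6 in Huh-7 and 1305 to 1403 in A-549. miR-141-3p went the other way, with 4.86 to 5.65 in ES-2, at most 1.13 in Huh-7 and at most 0.818 in A-549. miR-211-5p, the melanocyte marker, had 0 reads in both MV-3 libraries. Of the 3 blood cell markers, miR-142-3p reached 337 and 376 in ES-2 and had 0 reads in the other lines, while miR-451a and miR-223-3p had at most 4 reads in any library and at most 1 in ES-2. TMM factors, which scale for library composition, were highest in Huh-7 at 1.63 and 1.70 and lowest in A-549 at 0.608 and 0.593. Huh-7, the line with the highest cluster levels, thus also stood apart in hepatocyte markers and in scaling, and the part of the markers in the results was not tested. Where dropping the scaling factors ended a call or reversed an order, the values are given with the comparison or in the closing section on processing. In RNA from bulk cultures, a lower level in each cell and a smaller share of expressing cells cannot be told apart.

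The most abundant member was miR-532-5p, described as a repressor of RUNX3 in melanoma. Its normalised CPM in replicates 1 and 2 was 93.7 and 109 in ES-2, 141 and 122 in MV-3, 898 and 836 in Huh-7, and 172 and 195 in A-549. Both Huh-7 libraries lay far above the others, and the libraries of ES-2, MV-3 and A-549 did not overlap each other either. By reads it ranked 60th and 61st among the 858 and 842 names with a read in the Huh-7 libraries. In the other libraries its rank lay between 123 and 149. Its sister strand miR-532-3p was far rarer, with 1.39 and 9.24 normalised CPM in ES-2, 3.70 and 5.49 in MV-3, 38.6 and 36.5 in Huh-7, and 9.23 and 9.81 in A-549. The ES-2 value rested on 2 and 18 reads, so the replicates of that line differed more than the means of ES-2, MV-3 and A-549 did.

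The 3p arms with related sequences followed the same order of lines at the top. For miR-500a-3p, described in hepatocellular carcinoma as an activator of STAT3 signalling, normalised CPM was 56.2 and 79.1 in ES-2, 94.7 and 85.6 in MV-3, 551 and 466 in Huh-7, and 96.6 and 106 in A-549. For miR-501-3p, which in neurons controls an AMPA receptor subunit, it was 70.1 and 52.9 in ES-2, 48.1 and 50.5 in MV-3, 507 and 491 in Huh-7, and 107 and 92.4 in A-549. For miR-502-3p it was 51.4 and 20.0 in ES-2, 35.5 and 25.8 in MV-3, 249 and 244 in Huh-7, and 40.6 and 60.5 in A-549. In these 3 miRNAs the Huh-7 libraries were above all others, whereas MV-3 lay above ES-2 for miR-500a-3p and below it for miR-501-3p. With library size only, mean CPM of miR-501-3p was 57.4 in MV-3 and 52.8 in ES-2, the reverse order. On that scale miR-500a-3p had 109 and 101 CPM in MV-3 and 58.8 and 63.1 in A-549, whereas in normalised CPM A-549 was higher. For miR-502-3p the ES-2 replicates spanned both MV-3 libraries.

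Values of miR-660-5p were 28.5 and 56.5 normalised CPM in ES-2, 42.2 and 42.3 in MV-3, 347 and 395 in Huh-7, and 79.4 and 92.4 in A-549. For miR-362-5p, which targets the deubiquitinase CYLD, they were 32.6 and 26.7 in ES-2, 46.6 and 32.4 in MV-3, 326 and 269 in Huh-7, and 50.5 and 72.8 in A-549. Both miRNAs were thus highest in Huh-7, and in normalised CPM both A-549 libraries lay above the ES-2 and MV-3 libraries. With library size only, A-549 and MV-3 overlapped. CPM of miR-660-5p was then 48.3 and 54.8 in A-549 and 48.6 and 49.7 in MV-3. That of miR-362-5p was 30.7 and 43.2 in A-549 and 53.7 and 38.1 in MV-3. The opposite strand miR-362-3p had 10.4 and 7.19 normalised CPM in ES-2, 3.70 and 6.59 in MV-3, 34.4 and 33.1 in Huh-7, and 2.46 and 13.9 in A-549. Its A-549 libraries held 4 and 17 reads and spanned the values of ES-2 and MV-3.

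The least abundant member was miR-188-5p, which in bone marrow directs stromal cells towards fat. It had 4 and 0 reads in ES-2, 0 and 1 in MV-3, 28 and 34 in Huh-7, and 0 and 1 in A-549. This corresponded to 7.88 and 11.6 normalised CPM in Huh-7, against 2.78 in ES-2 replicate 1 and at most 0.818 in the remaining libraries. From pooled reads the ratio of Huh-7 to ES-2 was 8.10, with an exact 95% interval of 3.01 to 30.7. The ratio to MV-3 was 30.4 (5.25 to 1218) and that to A-549 was 27.2 (4.71 to 1093). These intervals cover counting error only, and the ratios against MV-3 and A-549 rest on 1 read in the lower line.

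**Figure D1:**
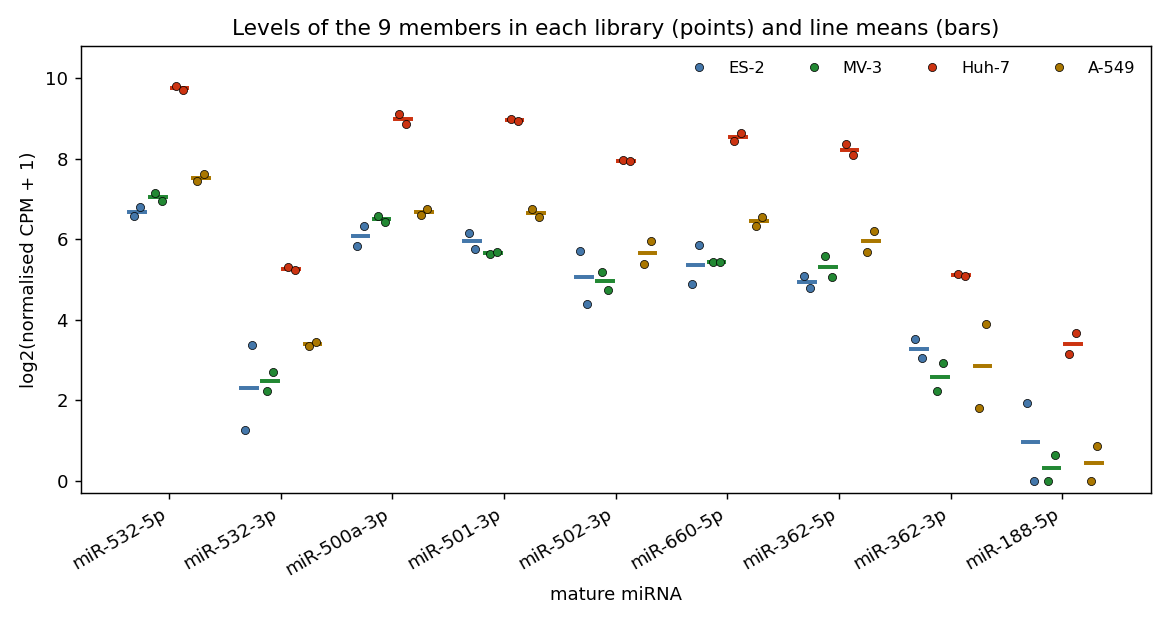
Level of each of the 9 members as log2(normalised CPM + 1) on the y axis, by mature miRNA on the x axis; points are single libraries, horizontal bars the means of the 2 libraries of a line, and colours the 4 lines. For every member both Huh-7 points sit above the other 6, and the remaining 3 lines lie close together.

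Differences between lines were tested with limma on log2(normalised CPM + 1) over 528 miRNAs that passed a filter on low reads, with a miRNA called at a Benjamini-Hochberg adjusted p below 0.01. All 9 members passed the filter, but miR-188-5p did so only through its Huh-7 libraries and would not have passed on the 6 other libraries. Its values in pairs with Huh-7 are therefore a description, and counts are also given for the other 8 members. Over the 4 lines, 6 of the 9 members were called, against 68.2% of all tested miRNAs. These were miR-532-5p, miR-500a-3p, miR-501-3p, miR-502-3p, miR-660-5p and miR-362-5p, the 6 members with at least 10 reads in every library. The other 3 had adjusted p values of 0.0219 for miR-532-3p, 0.0514 for miR-362-3p and 0.0140 for miR-188-5p.

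In Huh-7 against ES-2, 7 of 9 members were called higher, all of them among the 8 that passed the filter without Huh-7, while 27.7% of all tested miRNAs were called higher. The median log2 fold change of the members was 2.96, against 0.34 over all tested miRNAs, and 89 of the 528 had a log2 fold change at least that high. For miR-532-5p it was 3.09 (SE 0.14, limma adjusted p = 3.48e-06), for miR-362-5p 3.28 (SE 0.28, adjusted p = 7.8e-05) and for miR-660-5p 3.17 (SE 0.31, adjusted p = 0.000164). The 3p arms of related sequence had nearly equal values, 3.01 for miR-501-3p, 2.91 for miR-500a-3p and 2.90 for miR-502-3p. miR-532-3p was at the edge of the call with 2.96 (SE 0.69, adjusted p = 0.00988). This call was lost under 10 of 17 alternatives, and without ES-2 replicate 1, which held 2 reads, the log2 fold change was 1.91. The call of miR-502-3p was lost without either Huh-7 library. The members not called were miR-188-5p, at 2.45 (SE 0.66), and miR-362-3p, at 1.85 (SE 0.72). All members thus had positive values, and their 95% intervals all reached into the range of 2.75 to 3.42 that was estimated for miR-532-5p.

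Against MV-3, 7 of 9 members were again called higher in Huh-7, with 26.9% of all tested miRNAs called in that direction. Among the 8 members that passed the filter without Huh-7 the count was 6. The median log2 fold change was 2.90, with 0.19 over all tested miRNAs. The lowest was 2.48 for miR-500a-3p (SE 0.20) and the highest 3.31 for miR-501-3p (SE 0.17), so that these related 3p arms marked both ends of the range. miR-188-5p, which entered the test only through Huh-7, was called at 3.09 (SE 0.66), a call lost under 11 of 16 alternatives, among them edgeR and DESeq2 on recovered reads. miR-532-3p, at 2.80, and miR-362-3p, at 2.54, were not called. The call of miR-502-3p was lost without MV-3 replicate 2 and without either Huh-7 library. Against A-549, 7 of 9 members were called and all of them were lower in A-549, compared with 23.7% of all tested miRNAs called lower there. Without miR-188-5p the count was 6 of 8. The median log2 fold change of A-549 against Huh-7 was -2.27, and values ran from -1.87 for miR-532-3p to -2.97 for miR-188-5p. Here the calls of miR-660-5p and miR-502-3p were lost without any single library of Huh-7 or A-549, and that of miR-502-3p also without either MV-3 library. The call of miR-188-5p was lost under 11 of 16 alternatives in this comparison too, edgeR and DESeq2 among them. Without Huh-7 replicate 1, Huh-7 replicate 2 or A-549 replicate 1 there were 4 calls in this comparison. Comparisons of Huh-7 with the 3 lines share the Huh-7 libraries. In each comparison all 9 members had an unadjusted p below 0.05. The share of all tested miRNAs below that threshold was not counted, so no conclusion is drawn from this count. It also includes miR-188-5p, which entered the test only through Huh-7. In normalised CPM both Huh-7 libraries exceeded all 6 others for 9 of 9 members. The same held for 8 of the 8 that passed the filter without Huh-7, and for 29.4% of all tested miRNAs.

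Among ES-2, MV-3 and A-549, at most 1 member was called per pair by limma. In MV-3 against ES-2, limma called 0 of 9 members, with 25.8% of all miRNAs called. edgeR and DESeq2 on recovered reads also called 0 members, a smaller share than each called among all tested miRNAs. An unadjusted p below 0.05 was found for 1 member, miR-532-5p. Log2 fold changes ran from -0.70 for miR-362-3p to 0.43 for miR-500a-3p. The 95% interval was 0.04 to 0.71 for miR-532-5p and -2.45 to 1.05 for miR-362-3p, so changes of several fold were not detectable for the members with few reads. In A-549 against ES-2, miR-532-5p alone was called, at 0.85 (SE 0.14, adjusted p = 0.00221), with 23.7% of all tested miRNAs called higher. Of the other members, 6 had positive and 2 negative log2 fold changes. Unadjusted p values were below 0.05 for 5 members, edgeR called 1 and DESeq2 4. The share of all tested miRNAs with an unadjusted p below 0.05 was not counted. Of the 528 tested miRNAs edgeR called 204, in either direction, a larger share than among the members. With DESeq2 the share of members called was close to that of all tested miRNAs, so these 4 calls do not set the members apart. The call of miR-532-5p was lost without ES-2 replicate 1, without A-549 replicate 2, and with library size only, where the log2 fold change was 0.34 (adjusted p = 0.0553). Without A-549 replicate 2 no member was called in this comparison, and without ES-2 replicate 2 there were 2 calls. In A-549 against MV-3, miR-501-3p alone was called, at 0.999 (SE 0.17, adjusted p = 0.00333), with 24.1% of all miRNAs called higher. This call was lost without any single library of MV-3, Huh-7 or A-549, and with library size only its log2 fold change was 0.059 (adjusted p = 0.833). Unadjusted p values were below 0.05 for 3 members, edgeR called 1 and DESeq2 3. Of the 528 tested miRNAs edgeR called 213, in either direction. With edgeR and with DESeq2 the share of members called was below that of all tested miRNAs.

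The order of these 3 lines depended on the scaling between libraries. When the TMM factors were dropped, the median over all miRNAs moved on the log2 scale by -0.61 in A-549 against MV-3, by -0.28 in A-549 against ES-2 and by 0.36 in MV-3 against ES-2. With library size only, the share of the 9 members in all miRNA reads was 0.0303% ± 0.000402 in ES-2 (SD, n = 2), 0.0361% ± 0.00305 in A-549, 0.0458% ± 0.00300 in MV-3 and 0.479% ± 0.00656 in Huh-7. MV-3 was then above A-549, the reverse of the order by normalised CPM. The sums of Huh-7 against ES-2 differed 15.8-fold on this scale, and the median log2 fold change of the members was 3.86, with 1.07 over all miRNAs. With TMM factors dropped, all 9 members were called higher in Huh-7 against ES-2 and against MV-3. In A-549 against Huh-7 all 9 were called lower. The 9 include the member that passed the filter only through Huh-7. Of the 528 tested miRNAs, 314, 279 and 355 were called in these pairs, in either direction. The median over all miRNAs also moved towards Huh-7, by 0.74, 0.41 and -1.28 on the log2 scale.

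**Figure D2:**
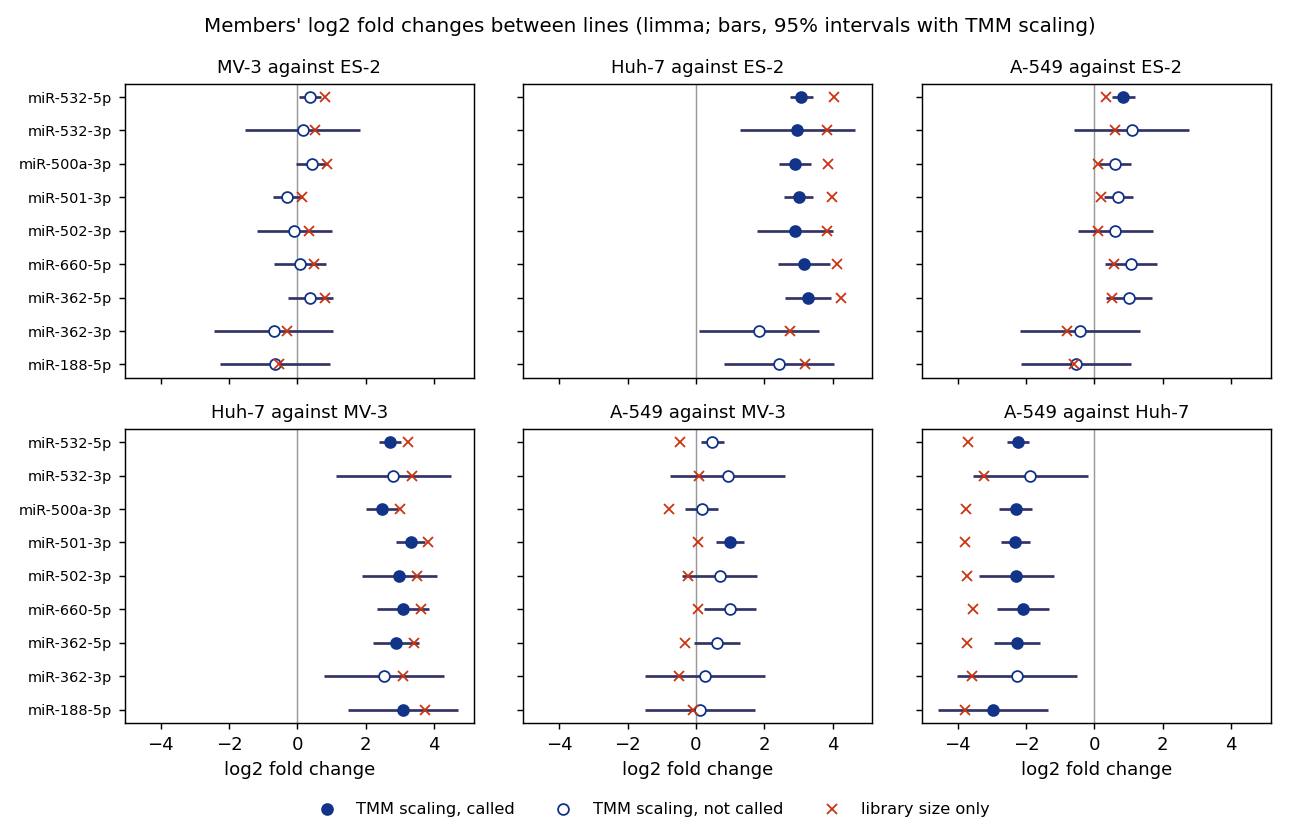
Log2 fold change (x axis) of each member (y axis) in the 6 pairs of lines; circles are limma estimates with TMM scaling, filled where called at an adjusted p below 0.01, horizontal bars their 95% intervals, and crosses the estimates with library size only. All values in the 3 pairs with Huh-7 lie on the Huh-7 side of 0 with either scaling, whereas in A-549 against MV-3 several change sign with the scaling.

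To describe how far the members moved together, Pearson's r of log2(normalised CPM + 1) was computed over the 8 libraries for each of the 36 pairs of members. The median was 0.912 and the range 0.605 to 0.993, compared with a median of 0.00403 over the 139128 pairs of all tested miRNAs. Over the means of the 4 lines the median was 0.982. The highest coefficients belonged to members with many reads and the lowest, 0.605, to miR-532-3p and miR-188-5p. Since miR-188-5p passed the filter only through Huh-7, its coefficients reflect that selection in part. Among pairs without it the lowest r was 0.675, for miR-532-3p and miR-362-3p. These coefficients are descriptions, since libraries of a line share their source, and all members of a library share its depth and scaling factor. They rested on Huh-7. Over the 6 libraries of the other lines the median fell to 0.338, with a range from -0.683 to 0.911, and 33.8% of all pairs of tested miRNAs had an r at least as high as this median. With library size only it was 0.0719 over these 6 libraries, below the 0.0854 of all pairs. Without ES-2, MV-3 or A-549 the median was 0.965, 0.904 and 0.937, respectively.

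The variation of the members was then split into parts. Of the sum of squares of the 9 members around their own means, 87.8% was a difference between lines common to all members. A further 3.65% was a difference between lines particular to single members, and 8.53% lay between replicates. For the 6 members with at least 10 reads in every library these shares were 95.8%, 1.16% and 3.07%. Without Huh-7 the common part was 22.9% and the replicate part 55.7% for the 9 members, and 59.7% and 29.9% for the 6 with more reads. With library size only and without Huh-7, these parts were 8.88% and 66.3% for the 9 members, and 40.6% and 43.5% for the 6. Relative to its mean over the lines, each member was 1.66 to 2.16 log2 units higher in Huh-7. In ES-2 it was 0.18 to 1.17 and in MV-3 0.56 to 1.15 log2 units below that mean, and in A-549 deviations ran from -0.85 to 0.04.

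The proportions of the members were also compared, since they do not depend on the scaling between libraries. miR-532-5p took between 27.0% and 34.0% of the reads of the 9 members in every library, miR-500a-3p 16.2% to 23.1%, and miR-501-3p 11.6% to 20.2%. Shares were 8.20% to 15.6% for miR-660-5p, 7.40% to 11.3% for miR-362-5p and 5.55% to 14.8% for miR-502-3p. The 3 rare members miR-532-3p, miR-362-3p and miR-188-5p each stayed at or below 3%. Line means were compared for the members with most reads, without a test. miR-532-5p held 30.2% ± 0.211 of member reads in Huh-7 (SD, n = 2), 30.6% ± 0.329 in A-549, 33.4% ± 0.810 in MV-3 and 28.6% ± 2.33 in ES-2. miR-500a-3p took 17.7% ± 1.34 in Huh-7, 16.9% ± 0.588 in A-549, 22.9% ± 0.213 in MV-3 and 19.1% ± 4.03 in ES-2. miR-501-3p took 17.4% ± 0.383 in Huh-7, 16.8% ± 3.44 in A-549, 12.6% ± 1.45 in MV-3 and 17.4% ± 3.92 in ES-2. In MV-3 both libraries thus held more miR-500a-3p and less miR-501-3p than both Huh-7 libraries. These arms are alike in sequence, and the split of reads between them is uncertain. The widest spread between replicates was that of miR-502-3p in ES-2, with 14.8% in replicate 1 and 5.55% in replicate 2. In these libraries miR-500a-3p, with which it shares 20 bases, took 16.2% and 21.9%, and miR-660-5p 8.20% and 15.6%.

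**Figure D3:**
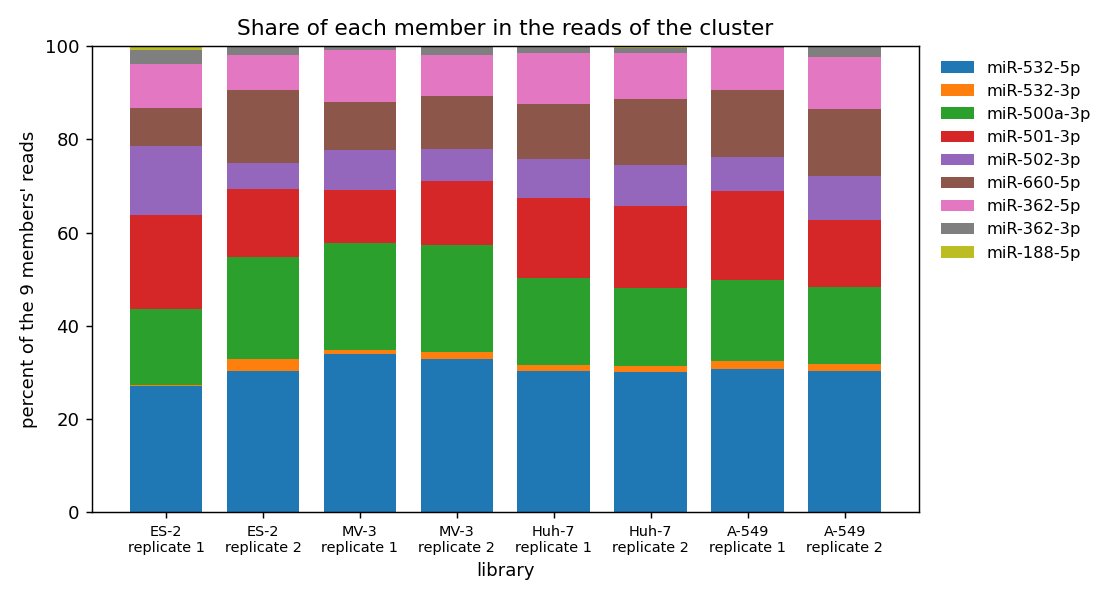
Percent of the reads of the 9 members (y axis, stacked to 100) taken by each member (colours) in each of the 8 libraries (x axis). miR-532-5p takes 27.0% to 34.0% in every library, and in MV-3 miR-500a-3p takes a larger and miR-501-3p a smaller share than in Huh-7.

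For mir-532 and mir-362 both arms are members, so the ratio of arms could be followed in each library. The 5p strand of mir-532 exceeded its 3p strand 67.5-fold and 11.8-fold in ES-2, 38.2-fold and 22.2-fold in MV-3, 23.3-fold and 22.9-fold in Huh-7, and 18.6-fold and 19.9-fold in A-549. The ratio was thus steadiest in Huh-7, the line with the most reads. An exact permutation test, taken on the F ratio over the 105 partitions of the 8 libraries into 4 pairs, gave p = 0.895. Without ES-2 replicate 2 the exact p was 0.0381, with line means of the log2 ratio that spanned 1.81. The 5p strand of mir-362 exceeded its 3p strand 3.13-fold and 3.71-fold in ES-2, 12.6-fold and 4.92-fold in MV-3, 9.48-fold and 8.13-fold in Huh-7, and 20.5-fold and 5.24-fold in A-549. ES-2 had the lowest ratio, with a mean log2 of 1.77 ± 0.174 against 3.13 ± 0.157 in Huh-7 (SD, n = 2). Both ES-2 ratios lay below the 6 others, but the difference among the 4 lines did not pass the exact permutation test (p = 0.362). Adjusted over these 2 ratios the exact p values were 0.895 and 0.724. The smallest p that 105 partitions allow is 0.00952.

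Among the 7 other mature arms of the 8 hairpins, 5 passed the filter, of which miR-501-5p alone would have passed on the libraries other than Huh-7. Outside Huh-7 these arms had few reads. miR-501-5p had 4.17 and 4.11 normalised CPM in ES-2, 6.66 and 12.1 in MV-3, 67.0 and 68.6 in Huh-7, and 4.92 and 2.45 in A-549. Its log2 fold change in Huh-7 was 3.74 against ES-2 (SE 0.45, limma adjusted p = 0.00043) and 2.78 against MV-3 (SE 0.45, adjusted p = 0.00191). In A-549, miR-501-5p lay below both MV-3 libraries in normalised CPM, while miR-501-3p of the same hairpin lay above them. With library size only, miR-501-3p had 65.2 and 54.8 CPM in A-549 and 55.4 and 59.4 in MV-3, which overlap. miR-500a-5p, miR-500b-5p and miR-502-5p reached 24.2 ± 4.34, 27.0 ± 11.6 and 17.1 ± 2.47 normalised CPM in Huh-7 (SD, n = 2), and at most 6.55 in the mean of any other line. miR-500b-5p is 18 bases long and lies entirely within miR-500a-5p, so the reads of these arms cannot be assigned with certainty. miR-500b-3p reached 9.82 ± 0.846 in Huh-7. miR-660-3p had 19 reads in all 8 libraries and miR-188-3p had 0. Because 4 of the 5 tested arms passed the filter only through Huh-7, no count of calls is drawn from them.

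**Figure D4:**
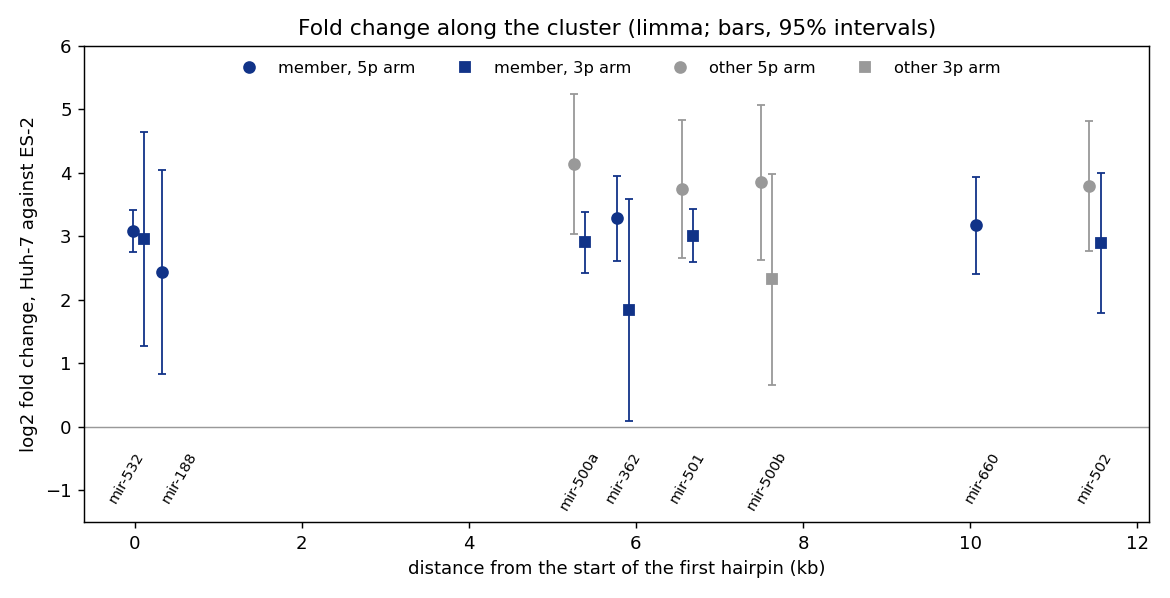
Log2 fold change of Huh-7 against ES-2 (y axis, limma) by distance of the hairpin from the start of the first hairpin (x axis, kb); circles are 5p and squares 3p arms, blue members and grey the other tested arms, and vertical bars 95% intervals. Values from mir-532 to mir-502, 11450 bases apart, lie above 0, and the intervals of neighbouring hairpins overlap. miR-188-5p and the grey arms other than miR-501-5p passed the filter only through Huh-7, so their place above 0 reflects that selection in part. mir-188 and mir-500b are shown by such arms only.

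In Huh-7 against ES-2 the ends of the cluster had similar log2 fold changes, with 3.09 for miR-532-5p from the first hairpin and 2.90 for miR-502-3p from the last. The 36 other tested miRNAs from the X chromosome had log2 fold changes from -9.54 to 1.84 in this comparison, with a median of -1.19, and 7 of them were called higher and 15 lower. In Huh-7 against MV-3 their median was -0.17, but values reached 7.89, above the highest member. In A-549 against Huh-7 their median was 1.30, and the lowest, -2.43, was beyond the median of the members.

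The miRNAs outside the cluster whose levels most resembled those of the member sum over the 8 libraries were miR-148a-3p (Pearson's r = 0.988), miR-95-3p (0.983), miR-28-3p (0.981), miR-483-3p (0.978) and miR-185-5p (0.972). They were picked from 371 candidates whose mean normalised CPM reached 10, of which 27, or 7.28%, reached an r of 0.9. All 5 lie on other chromosomes. Their size of change differed widely, from 12.5 in ES-2 to 16851 normalised CPM in Huh-7 for miR-148a-3p, and from 719 to 1388 for miR-28-3p. Over the 6 libraries without Huh-7, r with the member sum was 0.936 for miR-28-3p, 0.873 for miR-95-3p, 0.775 for miR-148a-3p, 0.621 for miR-483-3p and 0.555 for miR-185-5p. The r of miR-95-3p rests on low values, with mean normalised CPM of 0 in ES-2, 1.66 in MV-3 and 6.05 in A-549. miR-483-3p had 3.85, 5.51 and 11.2 in the same lines. Both miRNAs reached the candidate mean of 10 only through Huh-7.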

How the data were processed

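Small RNA-seq libraries were analysed for 4 lines with 2 replicates each. Per the labels and methods, the authors clipped reads with Cutadapt 1.14, aligned them to GRCh38 with Bowtie2 2.3.2, counted reads on miRBase 21 miRNAs with featureCounts 1.5.3 and applied TMM scaling in edgeR 3.18.1. Strand, multi-mapping reads and random adapter bases were not stated. The deposited signal values, called normalised CPM, were whole reads times a constant per library (100% of values within 0.001), so reads were recovered. TMM factors were recomputed from them, and the largest deviation from the deposited values was 3.1e-12.

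Entries of a name were summed. limma 3.58.1 in R 4.3.3 was fitted to log2(normalised CPM + 1) with 1 term per line over all 8 libraries after filterByExpr (528 miRNAs). Fold changes on this scale understate changes of low miRNAs. edgeR 4.0.16 and DESeq2 1.42.0 on recovered reads, RLE factors, library size only, a pseudocount of 0.1, other filters, an adjusted p below 0.05, a replicate block and leaving out single libraries were alternatives. Fits were tested on simulated data. Libraries of a line differed by more than counting noise (chi-square per degree of freedom 8.53 to 15.6). Sequences came from RefSeq. Named were the 9 members, the other arms and the 5 miRNAs most like the member sum. Members and lists were chosen with earlier results of these data known.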

Additional observations from a re-analysis of the deposited data

How the results depend on the processing

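Of 23 calls of single members, 14 held under every alternative tried, and they belong to miR-532-5p, miR-500a-3p, miR-501-3p, miR-362-5p and miR-660-5p in pairs with Huh-7. No value in a pair with Huh-7 changed sign. The number of members called in MV-3 against ES-2 with scaling by library size was 1. Of the 528 tested miRNAs, 143 were called there, in either direction. The number in A-549 against ES-2 was 2 with RLE factors, 0 with library size only, 4 with DESeq2 and 5 at an adjusted p below 0.05. For A-549 against MV-3, library size only gave 0, DESeq2 gave 3 and an adjusted p below 0.05 gave 3. At an adjusted p below 0.05, 283 of the 528 tested miRNAs were called in A-549 against ES-2, in either direction. There, and with DESeq2 in the same pair, the share of members called was close to that of all tested miRNAs. Under the other settings listed for A-549 against ES-2 and against MV-3 it was lower. The causes of these changes in number were not tested. Leaving out single libraries gave 5 to 8 members over the 4 lines, 0 in MV-3 against ES-2, 5 to 7 in Huh-7 against ES-2, 0 to 2 in A-549 against ES-2, 5 to 8 in Huh-7 against MV-3, 0 to 2 in A-549 against MV-3 and 4 to 8 in A-549 against Huh-7. A line left with 1 library was assumed to vary like the others. Counts over all tested miRNAs changed as well, so these ranges describe only how stable the counts were.

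With library size only, the log2 ratio of member sums to ES-2 was 3.98 in Huh-7, 0.59 in MV-3 and 0.25 in A-549, and with RLE factors it was 2.89 in Huh-7. Leaving out single libraries gave 2.97 to 3.06 in Huh-7, 0.0673 to 0.233 in MV-3 and 0.655 to 0.864 in A-549. The range of line means of the log2 arm ratio was 0.548 to 1.81 for mir-532 and 1.36 to 2.59 for mir-362 when single libraries were left out. The median r of members was 0.762 as Spearman's rho and 0.861 to 0.962 without single libraries. The values without the Huh-7 line, chosen after seeing the data, were 0.338, and 0.0719 with library size only.

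Changes of sign concerned uncalled values. With library size only, A-549 against MV-3 gave -0.47 for miR-532-5p, -0.77 for miR-500a-3p, -0.23 for miR-502-3p, -0.30 for miR-362-5p, -0.50 for miR-362-3p and -0.074 for miR-188-5p, and MV-3 against ES-2 gave 0.13 for miR-501-3p and 0.34 for miR-502-3p. In that pair edgeR and DESeq2 gave -0.26 and -0.26 for miR-532-3p and -0.028 and -0.047 for miR-660-5p. When single libraries were left out, MV-3 against ES-2 gave -0.891 to 1.21 for miR-532-3p, -0.743 to 0.573 for miR-502-3p, -0.412 to 0.553 for miR-660-5p and -1.60 to 0.316 for miR-188-5p. A-549 against ES-2 gave -0.0495 to 1.27 for miR-502-3p, -1.48 to 0.624 for miR-362-3p and -1.49 to 0.431 for miR-188-5p, and A-549 against MV-3 gave -0.786 to 1.32 for miR-362-3p and -0.316 to 0.547 for miR-188-5p. The filter of 10 normalised CPM removed miR-188-5p.

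Deviations of same-numbered libraries correlated between -0.05 and 0.232. These values show no strong pairing by replicate number, but they cannot exclude a weaker one. With the replicate block, 6 members were called over the 4 lines, 7 in Huh-7 against ES-2, 6 in Huh-7 against MV-3 and 6 in A-549 against Huh-7. The counts over all 528 tested miRNAs were 361, 249, 244 and 279. Few reads limit miR-188-5p, miR-532-3p and miR-362-3p, with 68, 306 and 286 reads in all libraries.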
